A study of Mus musculus with 8 samples.

Results

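The genes of glycolysis and of the response to low oxygen were followed in mouse hematopoietic cells cultured with or without red blood cells (RBCs). They comprised 36 of the 24346 gene symbols in the deposited tables and were listed by name for what they are known to do, with earlier results of these data known: 16 glycolytic enzymes, 2 enzymes that set the level of a glycolytic activator, 4 glucose and lactate transporters, 1 regulator of pyruvate oxidation, 3 genes of oxygen sensing and 10 genes induced by hypoxia. The question was whether RBCs, which carry oxygen, shifted these genes in either cell type.

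The cells were hematopoietic stem cells (HSCs; lineage-negative, Sca-1+, c-Kit+, CD48-, CD150+) and the wider LSK population (lineage-negative, Sca-1+, c-Kit+), which contains HSCs together with multipotent progenitors. All came from wild-type C57BL/6 mice, whose ages the sample labels do not give, and all were kept for 1 day in medium with added cytokines, without RBCs or with RBCs that had been passed through a leukocyte filter and irradiated. RBCs were then lysed and CD45+ cells were sorted, so a leukocyte that came with the RBCs could also enter a library. There were 2 libraries in each of the 4 groups. The labels do not say whether the 2 came from separate mice or cultures, and p-values therefore measure the spread between these libraries, which may be technical.

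Glycolysis converts glucose to pyruvate in the cytosol and yields ATP without oxygen, and lactate dehydrogenase can turn the pyruvate into lactate. When oxygen is plentiful, prolyl hydroxylases mark the transcription factor subunit HIF-1α for destruction. When oxygen falls, HIF-1α accumulates as protein, pairs with ARNT and binds short response elements near glycolytic genes, *Vegfa*, *Bnip3*, *Egln3* and others. HSCs reside in a bone marrow that is poor in oxygen and are known for a high use of glycolysis.

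Levels were given by the authors as FPKM, the fragments of a gene scaled to the length of its transcript and to the mapped fragments of the library. Differences were tested on log2(FPKM + 1) with limma across 12003 genes that reached 1 FPKM in 2 or more libraries, and a gene was said to rise or fall when its Benjamini-Hochberg adjusted p over these genes was under 0.05. The added 1 makes the change of a weakly expressed gene look smaller than it is. With 2 libraries against 2, an exact permutation test of a single value cannot give a p below 0.333. Of the 36 genes, 35 were tested. *P4ha2*, a subunit of collagen prolyl hydroxylase, lay between 0.119 and 0.458 FPKM in the 8 libraries and was not.

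Between 14829 and 16551 genes had an FPKM above 0 in a library, and relative depth, read from the steps between low values, ranged from 0.886 to 1.13 with LSK replicate 1 without RBCs set to 1. The absolute number of reads is unknown. The sort labels were checked against marker genes. The summed FPKM of 9 HSC markers was 895 to 1133 in the HSC libraries and 520 to 733 in the LSK libraries, and the sum of *Cd48*, *Flt3* and *Cd34* was 379 to 514 against 758 to 821. Markers of other cells also differed between groups. The sum of 10 neutrophil markers went from 8.54 and 10.6 FPKM in HSCs without RBCs to 46.4 and 254 with RBCs. In LSK cells it went from 129 and 221 to 365 and 572. The sum of 9 RBC and reticulocyte markers overlapped, at 284 and 340 FPKM in HSCs without RBCs and 312 and 303 with RBCs. In LSK cells it was 115 and 180 without and 185 and 121 with RBCs. Single genes of this list went in different directions. *Hba-a1*, an alpha globin gene, was at 0.0826 and 1.40 FPKM in HSCs without RBCs and at 88.7 and 116 with RBCs. *Hbb-b2*, a beta globin gene and the most abundant of the list, went from 279 and 335 to 120 and 158 in HSCs. *Slc4a1*, which encodes the main anion exchanger of the RBC membrane, was at 0 in 7 libraries and at 0.0186 FPKM in 1. In bulk libraries, fewer cells of a type and less RNA per cell cannot be told apart.

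To show what stands before the genes that the results turn on, the 250 bases upstream of a RefSeq transcript start (GRCm38.p6, the build of the mm10 files) are printed for 5 of them, 5′ to 3′ in the direction of transcription. Capitals mark each ACGTG or GCGTG, the core letters of a HIF response element, on either strand (on the other strand they read CACGT and CACGC, and CACGTG is a match on both). *Vegfa* and *Egln3* had the largest changes in LSK cells, *Pgk1* and *Tpi1* are enzymes that fell in LSK cells, and *Bnip3* fell in HSCs. *Vegfa* has a second RefSeq window, chr17:46025164-46025413, inside the annotated gene, with 2 matches, which is not printed. The *Tpi1* and *Bnip3* windows lie partly inside the annotated genes, which span chr6:124810586-124814296 and chr7:138890836-138909519.
Vegfa, chr17:46032378-46032627, minus strand, 0 matches: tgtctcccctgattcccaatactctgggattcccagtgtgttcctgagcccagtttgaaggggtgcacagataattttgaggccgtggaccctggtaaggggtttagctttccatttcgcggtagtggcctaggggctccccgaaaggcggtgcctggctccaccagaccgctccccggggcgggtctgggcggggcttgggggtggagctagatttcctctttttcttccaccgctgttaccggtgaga
Egln3, chr12:54203875-54204124, minus strand, 1 match: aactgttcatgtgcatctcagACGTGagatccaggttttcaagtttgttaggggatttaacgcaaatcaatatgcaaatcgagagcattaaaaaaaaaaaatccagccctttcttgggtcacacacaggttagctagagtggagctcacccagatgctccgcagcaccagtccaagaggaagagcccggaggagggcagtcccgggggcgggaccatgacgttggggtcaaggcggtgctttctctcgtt
Pgk1, chrX:106186850-106187099, plus strand, 2 matches: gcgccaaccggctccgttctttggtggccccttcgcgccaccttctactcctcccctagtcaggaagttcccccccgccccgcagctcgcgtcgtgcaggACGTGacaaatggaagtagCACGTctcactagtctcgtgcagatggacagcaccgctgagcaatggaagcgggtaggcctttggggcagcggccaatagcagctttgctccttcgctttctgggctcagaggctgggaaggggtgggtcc
Tpi1, chr6:124814159-124814408, minus strand, 0 matches: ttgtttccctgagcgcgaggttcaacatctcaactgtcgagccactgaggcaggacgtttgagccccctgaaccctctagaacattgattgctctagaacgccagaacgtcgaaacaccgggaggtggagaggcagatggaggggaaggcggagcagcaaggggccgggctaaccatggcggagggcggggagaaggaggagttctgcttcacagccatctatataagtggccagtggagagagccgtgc
Bnip3, chr7:138909507-138909756, minus strand, 5 matches: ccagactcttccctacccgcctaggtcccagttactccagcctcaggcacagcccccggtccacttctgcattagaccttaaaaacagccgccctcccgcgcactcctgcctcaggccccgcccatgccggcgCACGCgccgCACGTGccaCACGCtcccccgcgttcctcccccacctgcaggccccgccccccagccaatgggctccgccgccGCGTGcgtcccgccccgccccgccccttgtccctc

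RefSeq windows were matched for 33 of the 36 genes, with 51 windows between them, and 40 of the 51 (78.4%) held at least 1 match. The letters are short and frequent: they occurred in 56.1% of the 11625 windows of genes that were tested and in 38.6% of all 32851 windows. The stricter ACGTG alone stood in 49.0% of the members' windows against 21.9% for the tested genes. The printed windows run from no match to 5, and no match says only that these letters were not in these 250 bases.

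Genes of the list differed in opposite directions between libraries with and without RBCs. Whether a changed mix of cells contributes to these differences was not tested. *Vegfa* rose in both cell types, while most glycolytic enzymes had lower FPKM with RBCs, past the test for 4 of them in LSK cells and for *Ldhb* in HSCs. In HSCs, 1 of the 35 genes rose (*Vegfa*) and 2 fell (*Bnip3* and *Ldhb*), beside 1.57% of all tested genes that rose and 0.958% that fell. In LSK cells 1 rose (*Vegfa*) and 5 fell (*Egln3*, *Eno1*, *Pgk1*, *Pkm* and *Tpi1*), beside 2.32% and 1.13% of all genes. On the log2 scale their median change was -0.10 in HSCs, where that of all tested genes was -0.0062, and -0.19 in LSK cells, where it was -0.0095. With a change of at least 2-fold required as well, none of them was called in HSCs, beside 0.633% of all genes higher and 0.142% lower. Under the same rule *Vegfa* was the only call in LSK cells, beside 0.9% and 0.108%.

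Both falls in HSCs were lost when any of 6 libraries was left out (either library of the HSC groups, or either LSK library without RBCs). The 5 falls in LSK cells dropped to 1 without either LSK library without RBCs, and to 0 without either LSK library with RBCs. In those fits a group holds a single library, which is assumed to vary like the other groups.

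**Figure D1:**
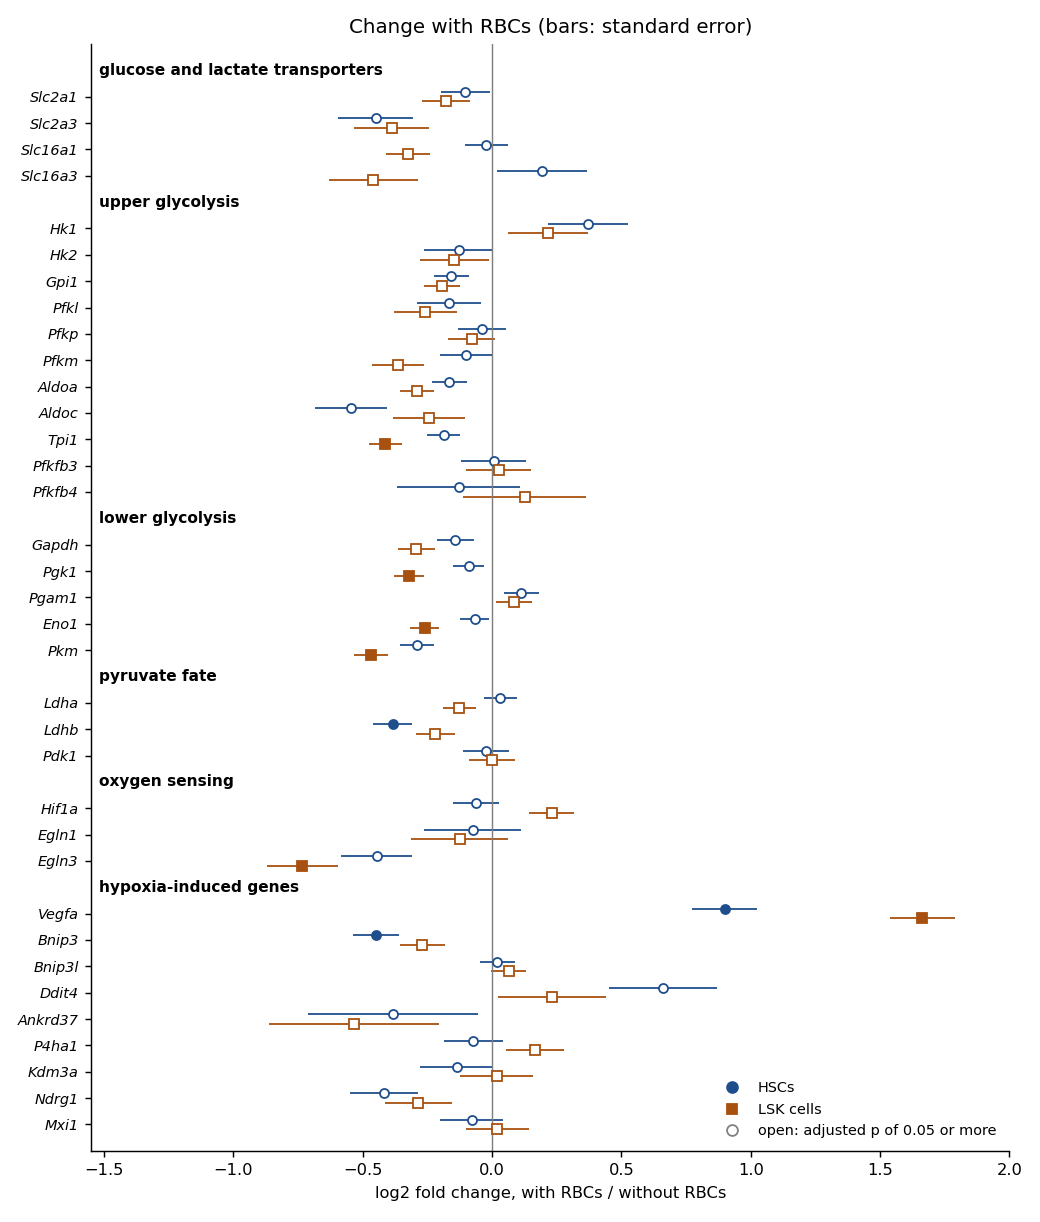
The log2 fold change with RBCs against without, on the log2(FPKM + 1) scale (x axis), is plotted for the 35 tested genes by role, with circles for HSCs, squares for LSK cells and bars for the standard error; filled symbols have an adjusted p under 0.05. *Vegfa* lies at 0.90 and 1.66, to the right of all other genes, and most glycolytic enzymes lie left of 0.

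Glucose enters these cells through *Slc2a1* (GLUT1) and *Slc2a3* (GLUT3), and lactate crosses the membrane through *Slc16a1* (MCT1) and *Slc16a3* (MCT4, typical of cells that export lactate). None of the 4 transporters passed the limma test with RBCs in either cell type (unadjusted p under 0.05 for 1 in HSCs and 3 in LSK cells, lower each time). *Slc2a3* read 39.6 and 30.1 FPKM in HSCs without RBCs and 23.0 and 27.3 with RBCs. In LSK cells it read 20.8 and 22.1 without and 14.8 and 17.7 with RBCs. The libraries with RBCs lay below those without in both cell types, with differences of -27.9% and -24.4% in mean FPKM (limma adjusted p = 0.18 and 0.20).

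In LSK cells all 4 transporters were lower with RBCs with no overlap between the groups, as 26.4% of all tested genes were. *Slc16a1* went from 30.1 and 32.7 to 25.1 and 24.5 FPKM (log2 fold change -0.33, limma adjusted p = 0.076), and *Slc16a3* from 3.40 and 3.02 to 2.30 and 1.85 (-0.46, limma adjusted p = 0.20). In HSCs both lactate transporters overlapped between groups, at 29.7 to 32.1 FPKM for *Slc16a1* and 3.18 to 4.67 for *Slc16a3*. *Slc2a1* was at 28.8 and 31.1 FPKM in HSCs and 28.6 and 27.0 with RBCs, and at 24.3 and 24.0 in LSK cells and 22.7 and 19.9 with RBCs. Its changes of -0.10 and -0.18 had limma adjusted p values of 0.73 and 0.35.

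Hexokinase, phosphofructokinase and aldolase carry glucose to the 3-carbon stage. Of the 11 genes of upper glycolysis, *Tpi1*, which encodes the triosephosphate isomerase that interconverts the products of aldolase, was the only gene to pass the test. In LSK cells *Tpi1* read 311 and 286 FPKM without RBCs and 226 and 221 with RBCs. Its mean FPKM fell by 25.0%, with a gap between the groups (log2 fold change -0.41 ± 0.065, SE, limma adjusted p = 0.011). In HSCs *Tpi1* read 411 and 416 without and 353 and 374 with RBCs, also without overlap, and did not pass (-0.19, limma adjusted p = 0.22). *Tpi1* (chr6:124810586-124814296) shares exon bases with *Spsb2* on the opposite strand, and its reads may include some from that gene.

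*Aldoa*, the main aldolase and the most abundant gene of upper glycolysis, read 973 and 977 FPKM in LSK cells and 814 and 781 with RBCs (-0.29, limma adjusted p = 0.052). In HSCs it read 788 and 877 without and 747 and 735 with RBCs (-0.17, limma adjusted p = 0.31). Its paralog *Aldoc* went from 19.0 and 23.6 to 15.0 and 13.3 FPKM in HSCs (-0.55, limma adjusted p = 0.089), the largest decrease of any of the 35 genes in HSCs, and stayed short of the threshold. *Gpi1*, glucose-6-phosphate isomerase, differed by -10.4% in HSCs and -12.5% in LSK cells, without overlap, and did not pass either.

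*Hk1*, the most abundant hexokinase here, read 75.8 and 53.5 FPKM in HSCs and 77.5 and 88.0 with RBCs. In LSK cells it read 63.0 and 76.8 without and 77.9 and 84.3 with RBCs. Its libraries with RBCs were higher in both cell types, with log2 fold changes of 0.37 and 0.22 that did not pass (limma adjusted p = 0.33 and 0.50). *Hk2* was far lower in level, between 4.98 and 7.28 FPKM in all libraries, and was lower with RBCs in both cell types without passing the test. Among the phosphofructokinases, the muscle-type *Pfkm* read 28.0 and 27.1 FPKM in LSK cells and 20.6 and 21.8 with RBCs (-0.36, limma adjusted p = 0.088). *Pfkfb3*, which makes the activator fructose 2,6-bisphosphate, lay at 5.88 to 6.12 FPKM in all HSC libraries, and its 95% interval for the log2 change with RBCs in HSCs ran from -0.28 to 0.29.

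In lower glycolysis 3 of 5 genes fell in LSK cells, and in HSCs none passed the limma test (1 at an unadjusted p under 0.05, *Pkm*). *Pkm*, pyruvate kinase, which makes pyruvate and ATP in the last step, read 667 and 732 FPKM in LSK cells without RBCs against 499 and 511 when RBCs were present. The groups were far apart, and the mean FPKM fell by 27.8% (log2 fold change -0.47 ± 0.067, SE, limma adjusted p = 0.0075). In HSCs *Pkm* read 830 and 779 without and 658 and 656 with RBCs, also without overlap, with a change of -0.29 just outside the threshold (limma adjusted p = 0.061).

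*Pgk1*, phosphoglycerate kinase, which makes the first ATP of the pathway, read 193 and 203 FPKM in LSK cells and 156 and 160 with RBCs. It fell by 0.32 on the log2 scale (± 0.059, SE, limma adjusted p = 0.022). In HSCs the same gene read 227 and 229 without and 216 and 212 with RBCs, a difference of -6.13% that did not pass, though the libraries did not overlap. The *Pgk1* gene lies at chrX:106187100-106203699 on the plus strand, and its printed window ends at the base before that start. *Pkm* lies at chr9:59656368-59679375 and shares exon bases with *Gm49759* on the same strand.

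*Eno1*, enolase, read 428 and 417 FPKM in LSK cells and 351 and 353 with RBCs, and fell by 0.26 on the log2 scale (± 0.056, SE, limma adjusted p = 0.038). Its HSC values were 497 and 487 without and 467 and 473 with RBCs. The fall of *Eno1* in LSK cells did not pass after quantile normalization, after rescaling to a common sum (TPM) or with a replicate block. It was also lost without the mean-variance trend and with all genes above 0 kept. *Eno1* (chr4:150236721-150248879) has a near-identical copy in the tables, *Eno1b*, and how reads were divided between them is not given in the sources used here. *Pgk1*, *Gapdh* and *Ldha* have named pseudogenes (3, 2 and 2 in GENCODE M21), and the same holds for them. Exons of *Gapdh*, *Aldoa* and *Pfkm* overlap those of *Iffo1*, *Fam57b* and *Senp1* on the opposite strand.

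*Gapdh*, the dehydrogenase that opens lower glycolysis and its most abundant gene, read 1370 and 1320 FPKM in LSK cells and 1135 and 1061 with RBCs. The groups did not overlap (-0.29, limma adjusted p = 0.061). In HSCs it read 1474 and 1628 without and 1422 and 1385 with RBCs (-0.14, limma adjusted p = 0.44). *Pgam1*, phosphoglycerate mutase, was the exception in this group, with 275 and 281 FPKM in HSCs and 307 and 295 with RBCs (0.11, limma adjusted p = 0.55), and overlapping libraries in LSK cells.

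Over the 16 enzymes from hexokinase to lactate dehydrogenase, 13 had a negative log2 fold change with RBCs in HSCs and 14 in LSK cells, while 51.7% and 52.0% of all tested genes did. Libraries with RBCs lay below both libraries without RBCs for 10 of 16 enzymes in HSCs, where 21.8% of all genes did so, and for 13 of 16 in LSK cells, where 26.4% did. The adjusted test called 1 of the 16 lower in HSCs and 4 in LSK cells. Genes are not independent replicates, and these counts are a description.

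The summed FPKM of the 16 enzymes was 6474 and 6703 in HSCs without RBCs and 6109 and 6102 with RBCs, a difference of -7.33%. In LSK cells the sum was 5942 and 5910 without and 5041 and 4940 with RBCs, a difference of -15.8%. Neither pair of groups overlapped, and each exact permutation p was 0.333, the smallest that 2 against 2 libraries allow. The sum is dominated by *Gapdh*, *Ldha*, *Aldoa* and *Pkm*.

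**Figure D2:**
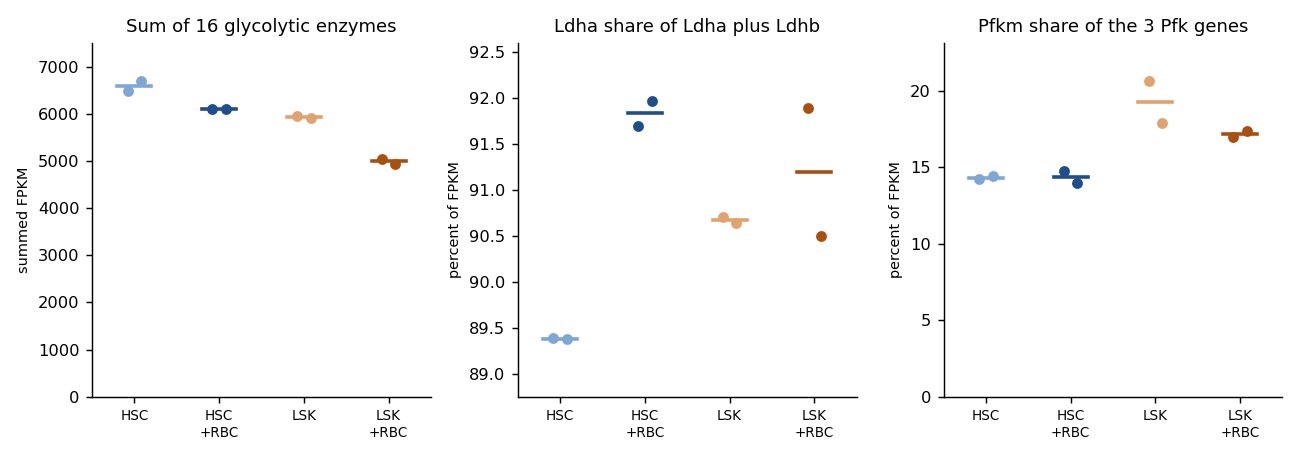
Each panel shows the 8 libraries as points and the group means as bars: summed FPKM of 16 glycolytic enzymes, the percent of *Ldha* in the FPKM of *Ldha* plus *Ldhb* (axis not from 0), and the percent of *Pfkm* in the 3 phosphofructokinase genes. The summed level is highest in HSCs without RBCs, at 6474 and 6703, and lowest in LSK cells with RBCs, at 5041 and 4940.

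Pyruvate is either reduced to lactate, by tetramers of the *Ldha* and *Ldhb* subunits, or oxidised in mitochondria, which *Pdk1* restrains by inactivating pyruvate dehydrogenase. *Ldha*, the most abundant of the 3 genes of pyruvate fate, read 1321 and 1406 FPKM in HSCs and 1385 and 1401 with RBCs, and the 95% interval of its log2 change ran from -0.11 to 0.18. In LSK cells it read 1137 and 1085 without and 1042 and 993 with RBCs (-0.13, limma adjusted p = 0.33). *Ldhb* behaved differently in HSCs, with 157 and 167 FPKM without and 125 and 122 with RBCs.

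The mean FPKM of *Ldhb* (chr6:142490249-142507957) fell by 23.5% in HSCs, with a clear gap between the groups (log2 fold change -0.38 ± 0.076, SE, limma adjusted p = 0.033). In LSK cells it read 116 and 112 without and 92.0 and 104 with RBCs, lower without overlap but short of the threshold (-0.22, limma adjusted p = 0.17). *Ldha* accordingly made up 89.4% of the summed FPKM of both genes in each HSC library without RBCs and 91.7% and 92.0% with RBCs. In LSK cells the share was 90.7% and 90.6% without and 91.9% and 90.5% with RBCs, which overlapped. *Pdk1* lay between 22.5 and 26.3 FPKM in all 8 libraries, with a 95% interval of its log2 change from -0.23 to 0.18 in HSCs and from -0.20 to 0.20 in LSK cells.

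Among the genes of oxygen sensing, *Hif1a* encodes the subunit that is controlled by protein stability, and *Egln1* (PHD2) and *Egln3* (PHD3) encode prolyl hydroxylases that mark it. In LSK cells *Egln3* read 24.1 and 22.9 FPKM without and 14.0 and 13.4 with RBCs. The groups were well separated, and the mean FPKM fell by 41.6% (log2 fold change -0.73 ± 0.14, SE, limma adjusted p = 0.023). In HSCs, which held much less *Egln3*, it read 9.63 and 7.39 without and 6.42 and 5.48 with RBCs, again without overlap, and did not pass (-0.45, limma adjusted p = 0.16). *Egln3* is itself a HIF target, and its annotated gene (chr12:54178981-54203860) has no exon in common with another gene.

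*Hif1a* read 21.3 and 23.0 FPKM in LSK cells and 26.9 and 25.3 with RBCs, higher without overlap but not past the test (0.23, limma adjusted p = 0.21). In HSCs it read 21.3 and 21.9 without and 20.4 and 20.9 with RBCs, a difference in the other direction with a 95% interval from -0.26 to 0.14. *Egln1* was low throughout, between 1.55 and 2.79 FPKM, and its groups overlapped in both cell types.

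*Vegfa*, the endothelial growth factor and a classical HIF target, rose in both cell types. Its FPKM was 15.6 and 17.5 in LSK cells without and 54.5 and 54.6 with RBCs. In HSCs it read 12.7 and 9.66 without and 20.7 and 22.4 with RBCs. Every library with RBCs was above every library without RBCs, across both cell types.

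The log2 fold change of *Vegfa* was 1.66 ± 0.13 (SE) in LSK cells, 3.17-fold on the log2(FPKM + 1) scale (limma adjusted p = 0.00038), and 0.90 ± 0.13 (SE) in HSCs, 1.86-fold (limma adjusted p = 0.0069). The HSC call was lost without HSC replicate 2 with RBCs, where the log2 fold change was 0.84 (limma adjusted p = 0.054). The effect in HSCs minus that in LSK cells was -0.77 and did not pass the interaction test (limma adjusted p = 0.17, unadjusted p = 0.0019). The *Vegfa* gene (chr17:46016993-46032369, minus strand) shares no exon with another annotated gene.

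Some markers of myeloid cells also differed with RBCs. The sum of 6 monocyte or macrophage markers in LSK cells was 70.0 and 81.4 FPKM without and 157 and 160 with RBCs. In HSCs it was 90.3 and 115 without and 110 and 116 with RBCs, which overlapped. Most of the HSC sum was *Cd68*, with means of 96.4 FPKM without and 97.6 with RBCs. Higher without overlap in HSCs with RBCs were *Csf1r* (means 2.67 to 8.22), *Ccr2* (0.908 to 1.98) and *Ly6c2* (2.38 to 4.78). *Fcgr1* was lower (0.257 to 0.0461). Of these 6 markers, *Csf1r* and *Ccr2* passed the test in LSK cells and *Csf1r* in HSCs, *Adgre1* stayed under 0.567 FPKM in all libraries, and *Fcgr1* was at 0 in both LSK libraries with RBCs. The neutrophil marker sum in HSCs with RBCs was 254 in the first library and 46.4 in the second, and *Vegfa* in the same libraries was 20.7 and 22.4 FPKM. The part of these cells in the *Vegfa* values was not tested.

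**Figure D3:**
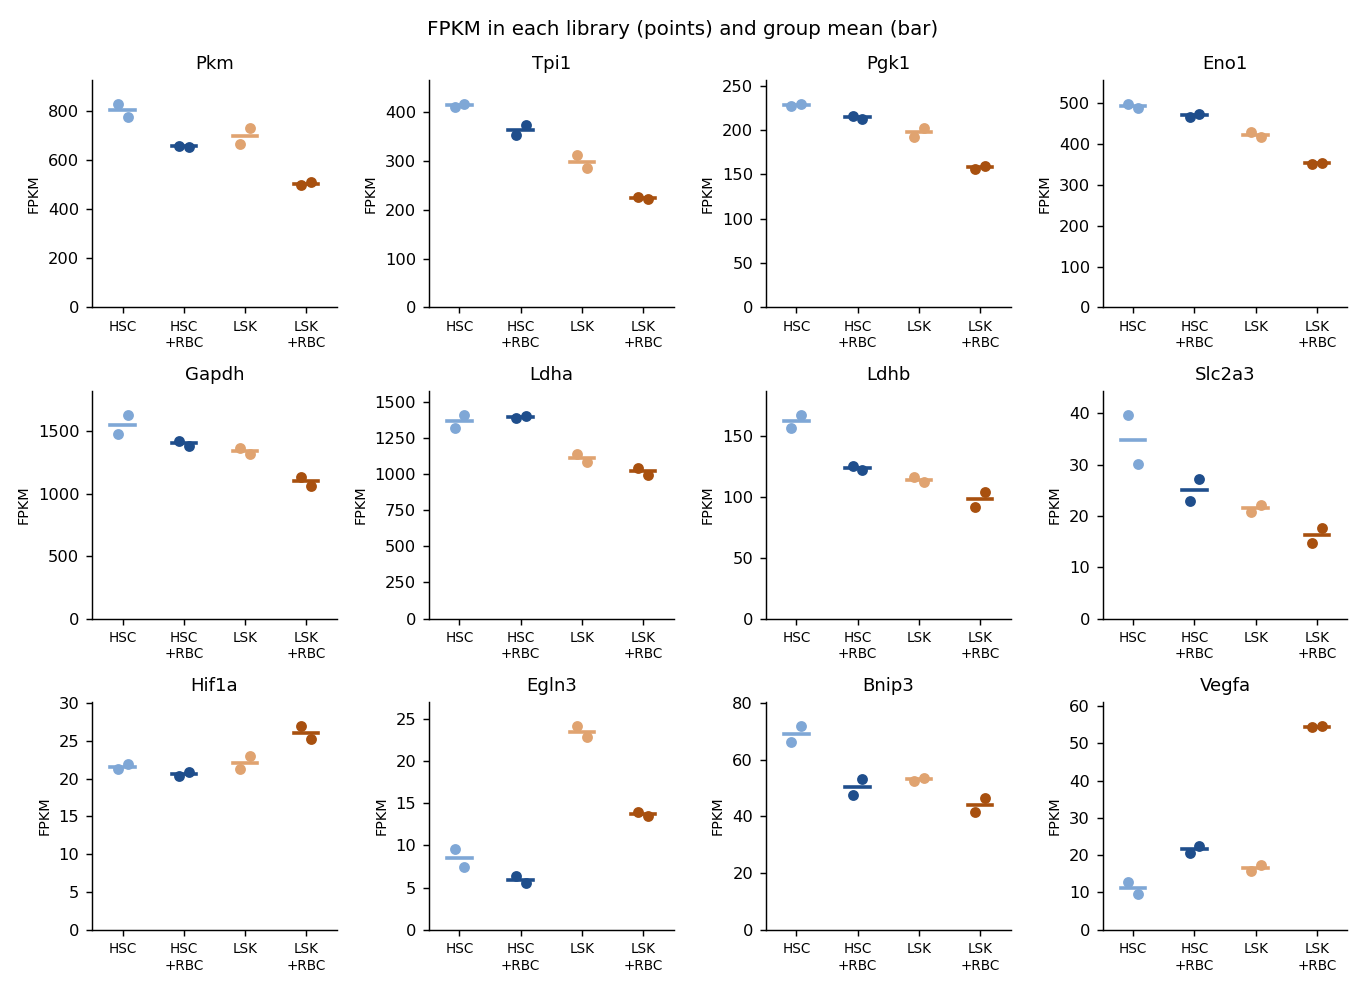
FPKM (y axis, from 0) is plotted for 12 genes in the 8 libraries, with points for libraries and bars for group means; groups on the x axis are HSCs and LSK cells without and with RBCs (+RBC). In LSK cells *Vegfa* goes from 15.6 and 17.5 to 54.5 and 54.6 while *Pkm*, *Tpi1*, *Pgk1*, *Eno1* and *Egln3* go down without overlap.

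Of the 9 tested hypoxia-induced genes, *Vegfa* was the only gene to rise in either cell type. Higher without overlap with RBCs were 2 of the 9 in HSCs (*Vegfa* and *Ddit4*), where 19.9% of all genes were, and 4 in LSK cells (these and *P4ha1* and *Bnip3l*), where 24.2% were. *Bnip3*, which promotes the removal of mitochondria by autophagy, read 66.2 and 71.7 FPKM in HSCs without RBCs and 47.4 and 53.2 with RBCs. It fell by 0.45 on the log2 scale (± 0.088, SE, limma adjusted p = 0.032), and its mean FPKM fell by 27.0%. In LSK cells it read 52.6 and 53.6 without and 41.5 and 46.3 with RBCs (-0.27, limma adjusted p = 0.14). Its printed window held 5 of the searched letter groups, and the gene (chr7:138890836-138909519) shares exon bases with *Gm45507* on the opposite strand.

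*Bnip3l* (NIX), which has the same role in mitophagy and is known for clearing mitochondria from reticulocytes, lay between 59.8 and 65.1 FPKM in all 8 libraries. Its 95% interval for the log2 change ran from -0.13 to 0.17 in HSCs and from -0.09 to 0.22 in LSK cells. *Ndrg1*, a stress-responsive gene, read 28.8 and 26.5 FPKM in HSCs and 19.9 and 21.0 with RBCs (-0.42, limma adjusted p = 0.17). *Ddit4*, an inhibitor of mTORC1, read 0.23 and 0.728 FPKM in HSCs and 1.24 and 1.37 with RBCs (0.66, limma adjusted p = 0.17). Its LSK values were 1.55 and 1.11 without and 1.69 and 1.76 with RBCs (0.23, limma adjusted p = 0.61), higher without overlap as in HSCs.

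The steps in the low values gave 5 and 13 reads for *Ddit4* in HSCs without RBCs and 24 and 30 with RBCs, so its precision is limited by counting. *Ankrd37* was as shallow, with 6 to 40 reads per library, and its groups overlapped in both comparisons. *Kdm3a*, a histone demethylase, *Mxi1*, a MYC antagonist, and *P4ha1*, a collagen prolyl hydroxylase subunit, ranged from 10.3 to 17.3, 8.68 to 12.9 and 10.4 to 15.1 FPKM and did not pass the test with RBCs.

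None of the 35 genes passed the limma test of whether RBCs acted differently in the 2 cell types, beside 0.05% of all genes with a more positive effect in HSCs and 0.0833% with a more negative one. At an unadjusted p under 0.05, 5 had a more positive effect in HSCs (*Tpi1*, *Pgk1*, *Eno1*, *Slc16a1* and *Slc16a3*) and 2 a more negative one (*Hif1a* and *Vegfa*). The largest of the 5 differences was that of *Slc16a3*, 0.65 (limma adjusted p = 0.33). A call in LSK cells alone is therefore not shown to differ from HSCs.

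In both conditions *Eno1* and *Pgk1* of lower glycolysis and *Ldha* and *Ldhb* were lower in LSK cells than in HSCs. Without RBCs, 2 of the 35 genes were higher in LSK cells (*Egln3* and *Vegfa*) and 7 lower (*Bnip3*, *Eno1*, *Ldha*, *Ldhb*, *Pgk1*, *Slc2a3* and *Tpi1*), beside 6.93% and 7.29% of all genes. With RBCs, 5 were higher (*Egln3*, *Hif1a*, *Kdm3a*, *Ndrg1* and *Vegfa*) and 11 lower (*Eno1*, *Gapdh*, *Ldha*, *Ldhb*, *Pgk1*, *Pkm*, *Tpi1* and all 4 transporters), beside 11.9% and 12.5%. The calls of *Eno1* and *Pgk1* without RBCs depended on the processing. Both were lost after quantile normalization, after rescaling to a common sum (TPM) and with a replicate block. They were also lost without the mean-variance trend and when only the groups compared were fitted, and kept their sign throughout. Leaving out single libraries gave 2 to 6 lower without RBCs, with 2 in the absence of either LSK library of that condition, and 1 to 3 higher, with 1 in the absence of LSK replicate 2. With RBCs it gave 6 to 12 lower, with 6 in the absence of HSC replicate 2 with RBCs, 7 in the absence of HSC replicate 1 or LSK replicate 2 with RBCs, and 2 to 5 higher, with 2 in the absence of any library with RBCs. With 2-fold required as well, 1 was higher and 0 lower without RBCs, beside 1.62% and 1.03% of all genes, and 2 were higher and 0 lower with RBCs, beside 2.61% and 1%.

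*Tpi1* had the lowest adjusted p of the enzymes in both conditions. Its LSK values of 311 and 286 FPKM lay below the HSC values of 411 and 416 (log2 fold change -0.47 ± 0.065, SE, limma adjusted p = 0.0018), and with RBCs the difference was -0.69 (limma adjusted p = 0.00014). *Ldha* was lower in LSK cells, with log2 fold changes of -0.29 without RBCs and -0.45 with RBCs (limma adjusted p = 0.016 and 0.0014). *Ldhb* was lower too, with -0.50 and -0.33 (limma adjusted p = 0.0031 and 0.013).

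*Slc2a3* was the transporter that differed most without RBCs, with 20.8 and 22.1 FPKM in LSK cells against 39.6 and 30.1 in HSCs (-0.66 ± 0.15, SE, limma adjusted p = 0.017). With RBCs, the log2 fold change was -0.73 for *Slc16a3* (limma adjusted p = 0.015), -0.37 for *Slc2a1* (adjusted p = 0.019) and -0.30 for *Slc16a1* (adjusted p = 0.028). All 4 transporters were then below the HSC values with no overlap. Not every enzyme shared this order: *Aldoa* had 973 and 977 FPKM in LSK cells against 788 and 877 in HSCs without RBCs (0.23, limma adjusted p = 0.052), and *Gpi1* was also higher in LSK cells without overlap.

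The enzyme sum in LSK cells differed from that in HSCs by -10.1% without RBCs and by -18.3% with RBCs, without overlap. *Pfkm* made up 20.7% and 17.9% of the FPKM of the 3 phosphofructokinase genes in LSK cells without RBCs and 14.2% and 14.4% in HSCs. These groups did not overlap, with an exact permutation p of 0.333.

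In contrast, *Egln3* was higher in LSK cells, by 1.37 ± 0.14 (SE) without RBCs and by 1.09 with RBCs on the log2 scale (limma adjusted p = 0.00032 and 0.00084). This was the largest log2(FPKM + 1) difference between the cell types without RBCs among the 35, while *Ddit4*, near 1 FPKM, had a ratio of mean FPKM of 2.78 against 2.76 for *Egln3*. *Vegfa* was higher by 0.54 without and 1.30 with RBCs (limma adjusted p = 0.022 and 0.00018). The *Vegfa* call without RBCs was lost with all genes above 0 kept and when only the groups compared were fitted. That with RBCs held under both. When single libraries were left out, the log2 fold change of *Vegfa* without RBCs ran from 0.35 to 0.72. The call was not kept in all of these fits, in which a group holds a single library. Of the 9 tested hypoxia-induced genes, 7 were higher in LSK cells without overlap in the absence of RBCs, where 28% of all genes were, and 6 with RBCs, where 33.7% were. *Kdm3a* read 17.3 and 15.0 FPKM in LSK cells with RBCs against 10.3 and 12.2 in HSCs (0.49, limma adjusted p = 0.034), and *Ndrg1* 30.9 and 26.7 against 19.9 and 21.0 (0.47, limma adjusted p = 0.028).

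**Figure D4:**
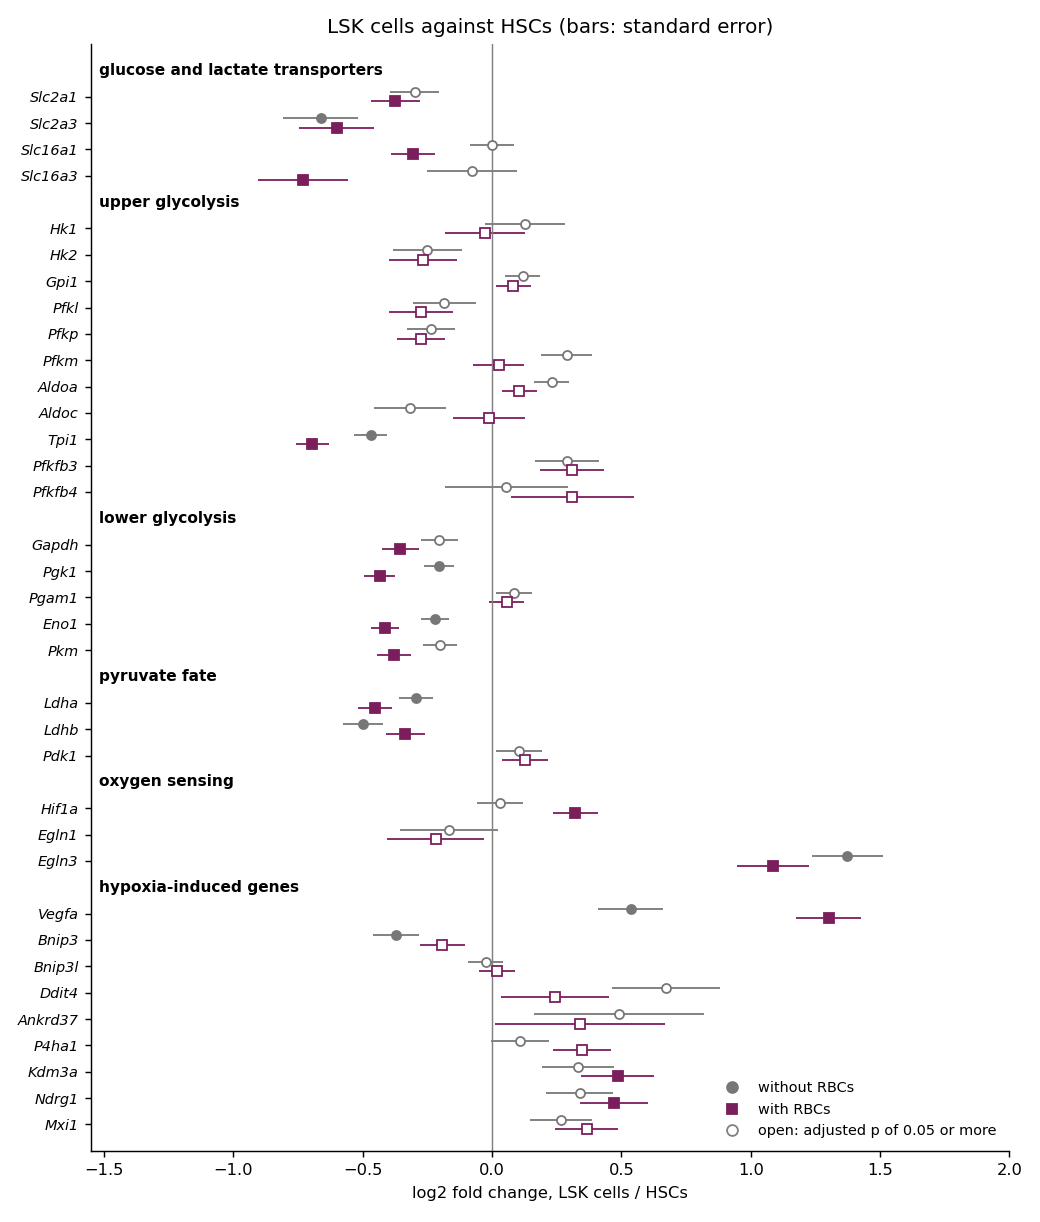
The log2 fold change of LSK cells against HSCs, on the log2(FPKM + 1) scale (x axis), is plotted for the 35 tested genes by role, with circles for cells without RBCs, squares for cells with RBCs and bars for the standard error; filled symbols have an adjusted p under 0.05. *Egln3* (1.37 and 1.09) and *Vegfa* (0.54 and 1.30) lie to the right, and *Tpi1*, *Slc2a3* and *Ldhb* to the left.

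A wider list of 85 genes of the same pathways was read beside the 36, and 69 of them were tested. In HSCs 2 rose with RBCs (*Bhlhe40* and *Plod1*) and 4 fell (*Hk3*, *Taldo1*, *Cited2* and *Anxa2*), beside 1.57% and 0.958% of all genes. In LSK cells 1 rose (*Bhlhe40*) and 3 fell (*Taldo1*, *Tkt* and *Hmox1*), beside 2.32% and 1.13%. None of the 12 genes of pyruvate dehydrogenase and mitochondrial pyruvate entry passed the limma test in either cell type (1 at an unadjusted p under 0.05 in HSCs and 0 in LSK cells).

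*Bhlhe40*, a transcriptional repressor induced by hypoxia and by many other stimuli, was the only gene of the list to rise in both. It read 51.2 and 49.9 FPKM in HSCs and 123 and 116 with RBCs (1.22 ± 0.10, SE, limma adjusted p = 0.00040), and 37.0 and 43.7 in LSK cells against 94.1 and 80.5 (1.10, limma adjusted p = 0.00069). *Plod1*, a collagen lysyl hydroxylase, read 7.96 and 6.29 FPKM in HSCs and 15.0 and 15.9 with RBCs (1.02, limma adjusted p = 0.021).

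In the pentose phosphate pathway, which branches from glycolysis to make NADPH and ribose, transaldolase *Taldo1* fell in both cell types. It read 343 and 359 FPKM in HSCs and 283 and 274 with RBCs (-0.33, limma adjusted p = 0.020), and 456 and 461 in LSK cells against 336 and 347 (-0.42, limma adjusted p = 0.0066). Transketolase *Tkt* fell in LSK cells from 205 and 198 to 163 and 167 FPKM (-0.29, limma adjusted p = 0.038). Of the 7 genes of this pathway, 1 passed in HSCs and 2 in LSK cells, all lower.

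*Hk3*, a hexokinase typical of myeloid cells, fell in HSCs from 16.5 and 12.7 to 6.17 and 6.70 FPKM (-1.06, limma adjusted p = 0.0069), while *Hk1* had higher values with RBCs. *Cited2*, which competes with HIF-1α for its coactivator, fell in HSCs from 93.0 and 96.9 to 57.4 and 60.0 FPKM (-0.68, limma adjusted p = 0.0028). *Hmox1*, heme oxygenase, which degrades heme and is also a HIF target, fell in LSK cells from 28.6 and 30.3 to 13.6 and 16.8 FPKM (-0.92, limma adjusted p = 0.022).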

How the data were processed

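RNA from CD45+ cells sorted after culture was turned into full-length cDNA libraries (SMART-Seq HT with Nextera XT) and sequenced, 8 libraries in all. The authors deposited 1 FPKM value per gene symbol and library, so values were already normalized for transcript length and depth and replicates were not pooled. The submitters' processing notes name TopHat2 2.1.1, Bowtie2 2.2.8, SAMtools 0.1.18, Cuffdiff 2.2.1 and mm10, without their order. How reads shared by near-identical genes were divided is not given in the sources used here.

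Groups came from the sample labels. limma 3.58.1 in R 4.3.3 was run on log2(FPKM + 1), pseudocount 1, over the 12003 genes that reached 1 FPKM in 2 or more libraries, with the means of 4 groups in a single fit, a mean-variance trend and no replicate block (4 residual degrees of freedom, prior 5.18). Contrasts were RBCs against none in each cell type, the difference of these effects, and the 2 cell types against each other in each condition, with Benjamini-Hochberg adjustment over all 12003 genes. Sums and shares of FPKM were compared by two-sided exact permutation tests. The procedure was tested on simulated data. The 36 genes, the 85 other pathway genes and the marker lists were chosen with earlier results of these data known. Genes given with full statistics are those past the threshold in at least 1 comparison and the most abundant member of each role; other pathway genes are named where they passed.

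Same-numbered libraries of different groups did not deviate together (correlations of deviations between -0.067 and 0.095), so the numbers were not taken to pair them. Relative depth was read from 7378 genes with a mean FPKM under 1, of which 6314 (85.6%) had whole steps in all 8 libraries within 0.02 of a step. The number of reads is a multiple of the smallest step seen and could be a lower bound. Positions came from GENCODE M21 (GRCm38) and promoter windows from RefSeq (GRCm38.p6). Alternatives covered pseudocounts, filters, scalings, thresholds, the libraries in the fit, the trend, a replicate block and the omission of each library. Protein levels, flux and oxygen tension were not analysed here.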

Additional observations from a re-analysis of the deposited data

How the results depend on the processing

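Counts of genes past the threshold depended on the processing more than their direction did, and none of the single-gene results past the threshold changed sign under the alternatives run. Changes short of the threshold were not followed across the alternatives. *Vegfa* in LSK cells stayed past the threshold under all 16 settings that bear on it. Counts are given as higher and lower against 1 and 2 (HSCs with RBCs), 1 and 5 (LSK cells with RBCs), 2 and 7 (LSK cells against HSCs without RBCs) and 5 and 11 (with RBCs). Requiring at least 2-fold gave 0 and 0 in HSCs, 0 lower in LSK cells, 1 and 0 between cell types without RBCs and 2 and 0 with RBCs. Keeping all genes above 0 gave 0 lower in HSCs, 3 lower in LSK cells, 1 and 3 between cell types without RBCs and 3 higher with RBCs. Fitting only the groups compared gave 0 lower in HSCs and 1 and 4 between cell types without RBCs, and dropping the trend gave 0 lower in HSCs, 1 lower in LSK cells and 3 lower between cell types without RBCs. An adjusted p under 0.1 gave 4 lower in HSCs, 9 lower in LSK cells and 5 higher between cell types without RBCs. Rescaling to a common sum (TPM) gave 1 lower in HSCs. It moved the enzyme sum with RBCs to -5.07% in HSCs and to -13.7% in LSK cells. Between cell types the sum moved to -7.02% without RBCs and -15.5% with RBCs. The cause of these shifts was not tested. With a replicate block the counts were 1 lower in HSCs, 4 lower in LSK cells and 5 lower between cell types without RBCs, and the other counts did not move; the libraries share only a number, since same-numbered deviations correlated between -0.067 and 0.095. Leaving out 1 library at a time gave 0 to 1 higher and 0 to 2 lower in HSCs, 1 higher throughout and 0 to 7 lower in LSK cells, 1 to 3 higher and 2 to 6 lower between cell types without RBCs, and 2 to 5 higher and 6 to 12 lower with RBCs. The difference in the *Ldha* share reversed with 1 library: with RBCs in LSK cells it was 0.514 percentage points, -0.183 without LSK replicate 1 with RBCs and 1.21 without replicate 2, and between cell types with RBCs it was -0.643, -1.34 without LSK replicate 1 and 0.0546 without replicate 2. With 2 libraries per group and unknown absolute depth, small differences and genes near 1 FPKM are poorly resolved.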
